A study of Mus musculus with 14 samples.

Results

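The 36 nuclear genes for subunits of mitochondrial complex I were followed through brown adipose tissue of 14 C57BL/6 mice aged 8 weeks. Members were the genes with a symbol that begins with Ndufa, Ndufb, Ndufc, Ndufs or Ndufv, without the Ndufaf assembly factors, Ndufa4, Ndufa4l2 and pseudogenes, and they were found among 35275 genes in the table. Of 51 annotated genes with these prefixes, 36 remained. All 36 were present in the table and passed the filter on low values, which asked for at least 1 FPKM in at least 3 of the 14 libraries. The subunit Ndufb1, which the annotation lists under a pseudogene symbol, was not analysed here, and the processed pseudogenes Ndufa11b, Ndufb4c and Ndufs6b were left out.

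Every animal carried floxed Lrpprc alleles (genotype LrpprcFF). Knockouts also carried the Ucp1-Cre transgene, which is driven by the Ucp1 promoter and so acts in thermogenic adipocytes, not in other cells of the tissue. Controls had no Cre. The groups were 4 controls and 4 knockouts housed at 22 °C, and 3 controls and 3 knockouts housed at 30 °C, which is thermoneutrality for a mouse. The labels name brown adipocytes, but RNA came from homogenized tissue with no step that isolates cells.

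Complex I, NADH:ubiquinone oxidoreductase, is the entry point for NADH electrons into the respiratory chain and pumps protons across the inner mitochondrial membrane. Its hydrophobic core is encoded by mitochondrial DNA, whereas all remaining subunits come from nuclear genes, are imported, and join stepwise into modules: the N module that oxidizes NADH, the Q module that reduces ubiquinone, and 4 membrane modules named after the mitochondrial subunits ND1, ND2, ND4 and ND5 around which they assemble. Lrpprc encodes an RNA-binding protein that stabilizes mitochondrial messenger RNAs, and brown fat is among the tissues richest in respiratory chain.

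Promoter sequences of the members are shown first, and their part in the differences given below was not tested. RefSeq (GRCm38.p6) held a start site for 32 of the 36 genes, and the window from 250 bases before to 50 bases after the start was searched on both strands for 5 motifs named after factors known to act on respiratory genes. The NRF1 motif GCGCNNGCGC occurred in 9 of 32 members (28.1%) and in 7.0% of 27025 genes. The YY1 motif AAGATGGCG occurred in 5 of 32 (15.6%) against 1.64% of all genes. The ERR motif AAGGTCA occurred in 3 (9.38%, against 5.38%) and the ETS motif CCGGAAG in 4 (12.5%, against 9.93%). The SP motif GGGCGG occurred in 15 (46.9%, against 38.2%). At least one of NRF1, YY1, ERR or ETS was found in 18 members (56.2%) and in 21.3% of all genes. No searched motif is contained in another, although occurrences may overlap. A match is a match of letters only, and the 27025 genes were not limited to those expressed in brown fat.

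The 200 bases before the start site are given for 5 members picked after their values were seen, with motif matches in capitals. Ndufa1, Ndufb3 and Ndufb4 are among the 6 lowest fold changes at 30 °C, and Ndufs4 and Ndufa12 have the smallest decreases among those called there.
Ndufa1, chrX:37191239-37191438, minus strand: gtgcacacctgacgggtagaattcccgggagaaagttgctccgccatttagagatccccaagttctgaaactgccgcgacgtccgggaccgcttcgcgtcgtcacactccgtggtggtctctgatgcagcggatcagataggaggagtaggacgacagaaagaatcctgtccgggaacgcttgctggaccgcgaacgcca
Ndufb3, chr1:58586197-58586396, plus strand: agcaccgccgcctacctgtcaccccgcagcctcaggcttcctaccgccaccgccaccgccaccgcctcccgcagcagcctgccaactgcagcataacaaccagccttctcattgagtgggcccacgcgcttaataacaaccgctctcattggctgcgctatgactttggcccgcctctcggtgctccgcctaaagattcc
Ndufb4, chr16:37654369-37654568, minus strand: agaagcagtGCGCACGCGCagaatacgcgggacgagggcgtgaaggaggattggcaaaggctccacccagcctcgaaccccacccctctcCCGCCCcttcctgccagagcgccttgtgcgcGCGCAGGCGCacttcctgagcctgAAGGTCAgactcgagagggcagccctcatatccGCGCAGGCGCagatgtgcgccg
Ndufs4, chr13:114388095-114388294, minus strand: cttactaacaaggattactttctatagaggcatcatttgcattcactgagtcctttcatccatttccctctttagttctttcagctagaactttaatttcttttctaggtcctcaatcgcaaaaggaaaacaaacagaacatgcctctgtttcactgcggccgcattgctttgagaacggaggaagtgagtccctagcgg
Ndufa12, chr10:94198835-94199034, plus strand: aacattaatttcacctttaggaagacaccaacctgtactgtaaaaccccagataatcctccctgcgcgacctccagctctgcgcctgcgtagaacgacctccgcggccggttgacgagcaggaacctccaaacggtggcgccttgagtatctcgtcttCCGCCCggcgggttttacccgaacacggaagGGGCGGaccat

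Ndufb4 held 3 NRF1 matches, 1 ERR match and 1 SP match in these bases, Ndufa12 held 2 SP matches, and Ndufa1, Ndufb3 and Ndufs4 held none. Ndufa1 had 1 SP match further upstream, 225 bases before the start. The 5 YY1 matches all lay just after the start site, on the coding strand, and are shown with 10 bases before the match, which stands in capitals and whose first base is 23 to 36 bases into the transcript.
Ndufa9, chr6:126849097-126849125, minus strand: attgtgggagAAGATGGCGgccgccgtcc
Ndufc1, chr3:51408915-51408943, minus strand: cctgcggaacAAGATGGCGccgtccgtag
Ndufs4, chr13:114388045-114388069, minus strand: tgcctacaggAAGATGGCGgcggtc
Ndufs6, chr13:73328433-73328459, minus strand: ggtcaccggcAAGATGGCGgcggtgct
Ndufs7, chr10:80249463-80249491, plus strand: ggccgaggccAAGATGGCGgcgctggcgg

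Several facts of the libraries bear on what follows. Depth was 15.9 to 21.3 M fragments per library. Lrpprc was lower in every knockout than in every control of its temperature, with log2 fold changes of -1.86 at 22 °C and -2.06 at 30 °C (limma). Xist was at 9.01 to 18.4 FPKM in the 6 animals at 30 °C and at most 0.0141 FPKM in the 8 at 22 °C, while the Y-linked Ddx3y was at most 0.0244 FPKM at 30 °C and 14.5 to 23.1 FPKM at 22 °C, so temperature and sex cannot be told apart. Controls 3 and 4 at 22 °C have animal identifiers of another series (beginning with R), and control 4 stood apart from the other 3. Values are FPKM (fragments per kilobase of transcript, scaled to library size) rescaled by a median ratio over nuclear genes, fold changes are on the log2(scaled FPKM + 1) scale, and a gene is called at a limma adjusted p under 0.05 over all 13079 genes tested. In bulk tissue, fewer cells of a type and less RNA per cell cannot be told apart.

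The subunits were abundant but unequal. Over all 14 libraries Ndufb9, a membrane-arm accessory subunit, had the highest mean level, with 524 to 1236 scaled FPKM, and it ranked highest in each of the 4 groups. The next highest mean differed by group. It was that of Ndufa1 (879) in controls at 22 °C, of Ndufv1, the flavin- and NADH-binding core subunit, in knockouts at 22 °C (606), and of Ndufs7 at 30 °C (916.1 in controls and 598 in knockouts). All but one of the members averaged 48.0 scaled FPKM or more. The exception was Ndufb2, with 0.982 to 2.11 scaled FPKM in every library. Its exons overlap those of Gm42420 on the same strand and of Braf and Gm16272 on the opposite strand, over 2.6 to 2.8% of its exon bases each, and Gm42420 was not in the table. Ndufb6 and Ndufa13 share 39.0% and 30.0% of their exon bases with a gene on the opposite strand. The reason for the low listed level of Ndufb2 was not tested.

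**Figure D1:**
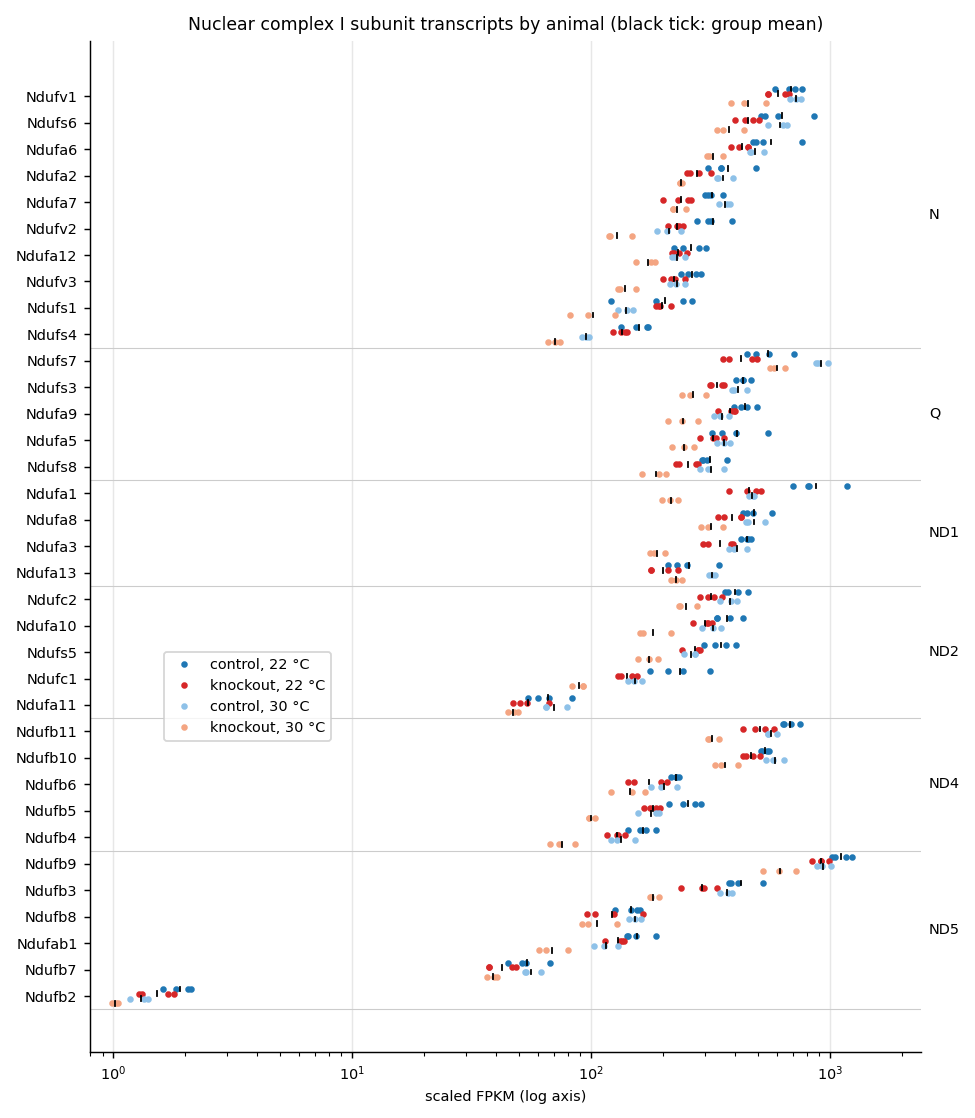
Scaled FPKM (log axis) of 35 of the 36 subunits in each of 14 animals, grouped by module, with points coloured by group and a black tick at each group mean. Knockouts at 30 °C lay under their controls for every subunit shown, and Ndufb2 stood alone near 1 scaled FPKM.

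The sum over all subunits was lower in knockouts at each temperature. In controls at 22 °C the summed level was 14287, 13050, 12635 and 15553 scaled FPKM, and in knockouts 11561, 9615, 11493 and 10416. At 30 °C it was 11816, 13585 and 12488 in controls and 7295, 8836 and 7720 in knockouts. Knockouts lay under controls without overlap at both temperatures. With FPKM as deposited the sums were 11210 to 14273 in controls and 10745 to 12659 in knockouts at 22 °C, which overlap. They were 11130 to 12611 and 8134 to 10583 at 30 °C, which do not.

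At 22 °C, 5 of 36 subunits were lower in knockouts and 0 were higher (adjusted p under 0.05, limma), where 1.06% of all genes tested were lower and 0.91% higher. They were Ndufa1, Ndufc1, Ndufb3, Ndufb5 and Ndufa7, all accessory subunits, and 0 of the 7 core subunits were called. The medians were nevertheless close, at -0.31 for core and -0.34 for accessory subunits. The ranges of 4 of 7 core and 18 of 29 accessory subunits lay wholly under those of controls. The ranges of 22 of 36 lay wholly under those of controls and 0 lay over them, compared with 4.53% and 4.85% of all genes. The median log2 fold change was -0.33 over the subunits and 0.0021 over all genes, with a negative value for 35 of 36. Without the 2 controls with R identifiers 4 were called and the median was -0.33. Without control 4 alone 2 were called and the median was -0.27. Over all genes, 139 were called lower in the full fit, and 193 and 90 in these fits.

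Ndufa1, a small single-pass membrane subunit of the ND1 module needed for assembly of complex I and encoded on the X chromosome, had the lowest fold change. It was at 819, 810.1, 701 and 1184 scaled FPKM in controls at 22 °C and at 513, 377, 492 and 448 in knockouts. Every knockout lay under every control, and control 4 was the highest. That is 52.1% of the control mean, a log2 difference of -0.92 (SE 0.15, limma adjusted p = 0.0074). Ndufa1 was called in 9 of 10 alternative settings, with an adjusted p of 0.0509 in the remaining fit to the 2 compared groups alone, and in all 14 fits that left out an animal.

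Ndufc1, an accessory subunit of the ND2 module, was at 243, 210.4, 177 and 315 scaled FPKM in controls at 22 °C and at 148, 129.7, 134 and 156 in knockouts. The ranges did not overlap, and controls were more spread than knockouts. Ndufc1 differed by -0.70 on the log2 scale (SE 0.14, limma adjusted p = 0.029). It was called in 5 of 10 alternative settings and in 9 of 14 fits without an animal.

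Ndufb3, a membrane accessory subunit of the ND5 module, was at 411, 379, 387 and 525 scaled FPKM in controls and at 290.2, 239, 336 and 297 in knockouts at 22 °C. Again all knockouts lay under all controls. Ndufb3 differed by -0.55 on the log2 scale (SE 0.12, limma adjusted p = 0.043) and was called in 3 of 10 alternative settings. Ndufb5, of the ND4 module, changed by -0.47 (SE 0.11, adjusted p = 0.043) and Ndufa7, of the N module, by -0.44 (SE 0.10, adjusted p = 0.049), with 5 and 3 calls in 10 alternative settings. Leaving out an animal ended most of these calls: Ndufb3, Ndufb5 and Ndufa7 were called in 3, 3 and 2 of 14 such fits.

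The highest values at 22 °C were those of Ndufs1, Ndufv1 and Ndufa12, all of the N module. This module lay at both ends of the list. Its core subunit Ndufv2 was at -0.49 with ranges apart (limma adjusted p = 0.056). Ndufs1, the large iron-sulfur core subunit, had 264, 244, 186 and 121 scaled FPKM in controls and 192, 195, 187 and 217 in knockouts. Its ranges overlapped, and control 4 was the lowest of all 8 animals. The log2 fold change was 0.02 (SE 0.21), and it was -0.21 without control 4 and -0.36 without both controls with R identifiers. Ndufv1 had 766, 718, 672 and 589.5 scaled FPKM in controls and 673, 549.9, 649 and 552 in knockouts, which overlap (log2 fold change -0.18, SE 0.13). Ndufa12, an N-module accessory subunit that takes the place of an assembly factor late in assembly, had 283, 243, 222 and 303 scaled FPKM in controls and 252, 218, 222 and 233 in knockouts, which also overlap (-0.17, SE 0.11). Neither was called, and with FPKM as deposited both values were above 0 (0.13 each).

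At 30 °C, 31 of 36 subunits were lower in knockouts and 0 were higher (adjusted p under 0.05, limma), where 5.29% of all genes tested were lower and 8.82% higher. The ranges of all 36 lay under those of controls and 0 lay over them, compared with 14.7% and 22.1% of all genes. The median log2 fold change was -0.61 over the subunits and 0.064 over all genes, and every value was negative. Ndufa13, Ndufb2, Ndufb6, Ndufb8 and Ndufs1 were not called. The count was 18 without control 2 or without knockout 1, and 19 without knockout 3, while every median stayed under 0. Over all genes, 692 were called lower in the full fit, and 354, 348 and 348 in these fits.

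The leading subunits at 30 °C came from the membrane arm. Ndufa1 was at 458, 475 and 480.4 scaled FPKM in controls and at 232, 199 and 215 in knockouts. That is 45.7% of the control mean, a log2 difference of -1.13 (SE 0.17, limma adjusted p = 0.0019). It was called in all 10 alternative settings and all 14 fits without an animal.

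Ndufa3, a small ND1-module subunit, was at 378, 452 and 396 scaled FPKM in controls and at 184, 204 and 176 in knockouts (log2 fold change -1.11, SE 0.13, limma adjusted p = 0.00032). At 22 °C it was at 467, 448, 426 and 453 in controls and 394, 293, 386 and 308 in knockouts, which did not overlap but was not called (-0.39, SE 0.11, limma adjusted p = 0.10). Ndufb3 was at 346, 389 and 374 scaled FPKM in controls at 30 °C and at 176, 193 and 178 in knockouts (-1.02, SE 0.14, limma adjusted p = 0.0011). For both genes the groups at 30 °C did not overlap and the animals of each group lay close together.

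The smallest differences at 30 °C were those of Ndufb2, Ndufa12 and Ndufs4. Ndufb2 was at 1.17, 1.34 and 1.40 scaled FPKM in controls and 0.982, 1.03 and 1.04 in knockouts (log2 fold change -0.19, SE 0.12, limma adjusted p = 0.32), a value the pseudocount of 1 holds close to 0. Ndufa12 was at 218, 247 and 224 in controls and 154, 185 and 179 in knockouts (-0.41, SE 0.13, limma adjusted p = 0.047). It was called in 3 of 10 alternative settings. Ndufs4, an N-module accessory subunit whose loss in mice gives a model of Leigh syndrome, was at 91.3, 97.8 and 95.5 in controls and 66.1, 74.4 and 70.7 in knockouts (-0.43, SE 0.11, limma adjusted p = 0.022). At 22 °C Ndufs4 was at 174, 155, 133 and 171 in controls and 142, 124, 134 and 139 in knockouts, which overlap (-0.23, SE 0.09, limma adjusted p = 0.26).

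**Figure D2:**
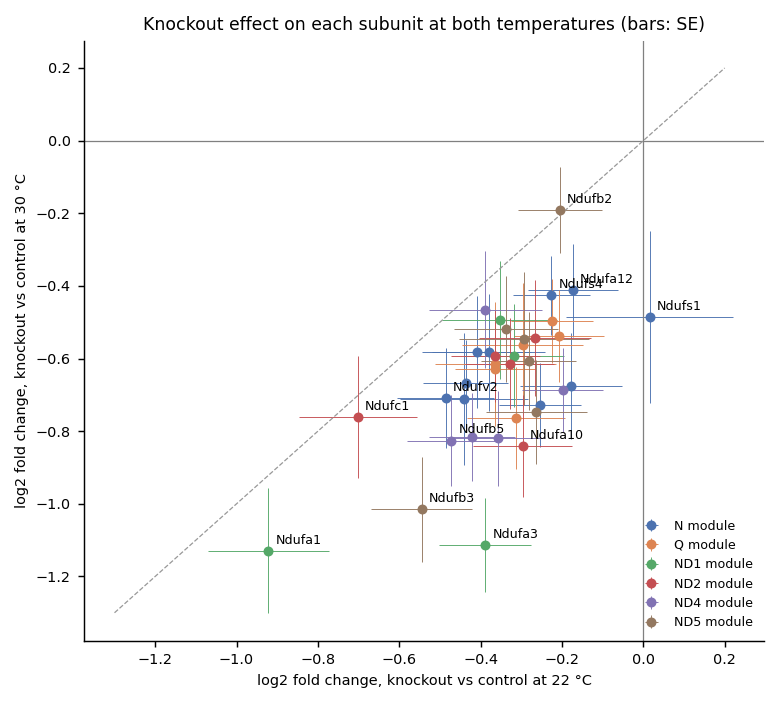
Log2 fold change of knockout against control for each of the 36 subunits at 22 °C (horizontal) and 30 °C (vertical), coloured by module, with bars for the standard error and a dashed line where both are equal. Ndufa1, Ndufa3 and Ndufb3 lie lowest at 30 °C, and Ndufs1 is the only subunit to the right of 0 at 22 °C.

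By module, the medians at 22 °C lay between -0.39 (ND4) and -0.29 (ND5). At 30 °C the ND1 (-0.85) and ND4 (-0.82) modules had the lowest medians, followed by N (-0.63), ND2 (-0.61), Q (-0.59) and ND5 (-0.58). The modules hold 4 to 10 genes each and were not tested against each other. At 30 °C the calls were 9 of 10 in N, 6 of 6 in Q, 3 of 4 in ND1, 5 of 5 in ND2, 4 of 5 in ND4 and 4 of 6 in ND5. Core subunits, which carry the cofactors and the catalytic sites, had medians of -0.31 and -0.63 at the 2 temperatures, and accessory subunits -0.34 and -0.61. Of the 6 called core subunits at 30 °C, Ndufs8 (-0.76) and Ndufv2 (-0.71) had the lowest values.

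The most abundant member of each module gave the following levels. In the ND5 module, Ndufb9 was at 1166, 1052, 1019 and 1236 scaled FPKM in controls at 22 °C and at 991, 844, 917.2 and 920.0 in knockouts, without overlap and without a call (log2 fold change -0.28, SE 0.12). At 30 °C Ndufb9 was at 882, 1007 and 926 in controls and 524, 725 and 614 in knockouts (-0.61, SE 0.13, limma adjusted p = 0.011). Its exons share bases with Gm49356 on the same strand.

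In the ND4 module the X-linked Ndufb11, another subunit with a single membrane span, was at 688, 642, 637 and 751 scaled FPKM in controls at 22 °C and at 535, 434, 581.9 and 485 in knockouts. The groups did not overlap, with a log2 fold change of -0.42 (SE 0.11, limma adjusted p = 0.062). At 30 °C Ndufb11 was at 552, 599 and 550.1 in controls and 310.1, 345 and 310.5 in knockouts (-0.82, SE 0.12, limma adjusted p = 0.0017).

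In the ND2 module Ndufc2 was at 413, 373, 364 and 455 scaled FPKM in controls at 22 °C and at 328, 285, 353 and 310.1 in knockouts, again apart but not called (log2 fold change -0.33, SE 0.11). At 30 °C it was at 347, 409 and 385 in controls and 233, 278 and 235 in knockouts (-0.61, SE 0.13, limma adjusted p = 0.0075). Ndufv1, the most abundant N-module member, was at 681, 754 and 724 in controls at 30 °C and at 387, 541 and 435 in knockouts (-0.67, SE 0.15, limma adjusted p = 0.0097). Its groups overlapped at 22 °C and did not at 30 °C.

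In the Q module Ndufs7, a core subunit that carries the last iron-sulfur cluster before ubiquinone, was at 450.3, 489, 556 and 710.0 scaled FPKM in controls at 22 °C and at 473, 379, 494 and 358 in knockouts, which overlap. At 30 °C it was at 889, 983 and 876 in controls and 583, 650.5 and 560.3 in knockouts (-0.62, SE 0.17, limma adjusted p = 0.031). Ndufs7 was the only subunit higher at 30 °C than at 22 °C without overlap, in either genotype.

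The difference between the knockout effects at the 2 temperatures was tested as an interaction. None of the 36 passed an adjusted p under 0.05 in limma (0 of 36), as for all genes (0% of 13079), and 10 of 36 passed an unadjusted p under 0.05 against 1692 of 13079 genes. For 35 of 36 the decrease was larger at 30 °C, with a median difference of 0.27. The smallest p belonged to Ndufa3 (0.72, SE 0.17, limma adjusted p = 0.18), which passed with sample weights (adjusted p = 0.042). Ndufb10 (0.49, SE 0.15, adjusted p = 0.22) and Ndufv3 (0.48, SE 0.15, adjusted p = 0.24) followed. Ndufb10 was at 557, 513, 518 and 547 scaled FPKM in controls and 509, 434, 475 and 444 in knockouts at 22 °C, against 539, 641 and 581 and 331, 413 and 351 at 30 °C. Ndufv3, an N-module accessory subunit, was at 289.6, 276, 238 and 255 scaled FPKM in controls and 247, 201, 225 and 216 in knockouts at 22 °C, which overlap. At 30 °C it was at 215, 248 and 226 in controls and 129, 154 and 132 in knockouts, which do not. A larger effect at 30 °C was therefore not shown for any single subunit.

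Across the 36 subunits the fold changes at 22 °C and 30 °C had a Pearson r of 0.62 and a Spearman rho of 0.55, or 0.50 and 0.51 without Ndufa1. The values over all 13001 nuclear genes were 0.45 and 0.39. Genes share the libraries and are not independent.

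The size of these decreases depended on the scaling at both temperatures. With FPKM as deposited the median of all genes shifted to 0.24 at 22 °C and 0.31 at 30 °C, so subunit medians are given relative to it. At 22 °C the subunit median relative to all genes was -0.34 with the scaling used, -0.30 with the same total over nuclear genes, -0.27 as deposited and -0.14 under quantile normalization. At 30 °C it was -0.68, -0.65, -0.62 and -0.37. The number of subunits under the median of all genes was 35, 35, 35 and 30 at 22 °C and 36 in each at 30 °C. In absolute terms as deposited, 22 of 36 were negative at 22 °C.

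**Figure D3:**
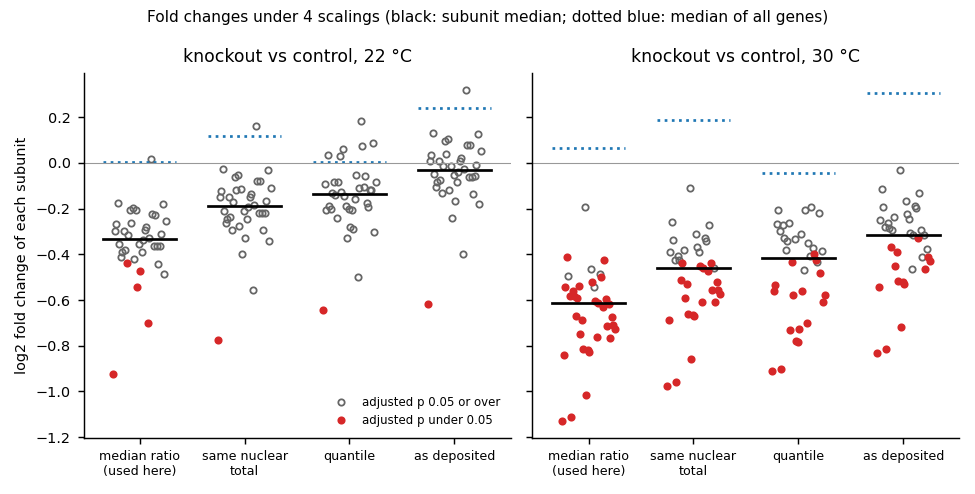
Log2 fold change of each subunit under 4 scalings at 22 °C (left) and 30 °C (right), filled where the limma adjusted p is under 0.05, with a black line at the subunit median and a dotted line at the median of all genes. Ndufa1 is filled at 22 °C under every scaling, with 4 other filled points under the median ratio alone. The subunits lie under the dotted line in nearly all cases.

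Housing temperature was compared within each genotype, with the sex of the animals moving with it. In controls 9 of 36 subunits were higher at 22 °C than at 30 °C, where 18.2% of all genes were higher, and 1 was lower, where 20.5% were. The 9 were Ndufa1, Ndufs4, Ndufv2, Ndufc1, Ndufb5, Ndufab1, Ndufs5, Ndufb2 and Ndufa9. In knockouts 26 were higher at 22 °C (21.8% of all genes) and 1 was lower (29.3%). The ranges lay apart for 11 subunits higher and 1 lower in controls (19.9% and 23.6% of all genes), and for 27 higher and 1 lower in knockouts (24.1% and 31.7%). The median was 0.18 in controls and 0.42 in knockouts. The number called higher was 5 in controls without control 1 at 30 °C, and 16 in knockouts without knockout 1 at 30 °C, and the number lower in controls was 2 without control 4 at 22 °C. Over all genes these numbers were 1790, 2160 and 3054, against 2384, 2855 and 2687 in the full fit.

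Ndufs4 was higher at 22 °C in both genotypes, by 0.72 in controls (SE 0.10, limma adjusted p = 0.00050) and 0.92 in knockouts (SE 0.10). Ndufa1 was higher by 0.87 in controls (SE 0.16, limma adjusted p = 0.0018) and 1.08 in knockouts. Ndufv2, the core subunit with the N1a cluster, was at 390.0, 318, 279 and 308 scaled FPKM in controls at 22 °C and 189, 237 and 207 at 30 °C, which do not overlap (0.61, SE 0.13, limma adjusted p = 0.0035). In knockouts, Ndufb5 was at 188, 166, 177 and 195 at 22 °C and 97.9, 104 and 98.1 at 30 °C (0.85, SE 0.12), and Ndufa3 was higher by 0.86 (SE 0.12).

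The 1 subunit that was lower at 22 °C in both genotypes was Ndufs7, by -0.75 in controls (SE 0.16, limma adjusted p = 0.0036) and -0.50 in knockouts (SE 0.16, limma adjusted p = 0.020). Without knockout 2 or 4 at 22 °C, or knockout 2 at 30 °C, the decrease in knockouts was not called. The temperature differences ran with the GC content of the transcripts. Over the 36 subunits the Pearson r was -0.74 in controls and -0.60 in knockouts, and over all annotated genes tested it was -0.52 and -0.44. By rank the relation in knockouts was alike, with a Spearman rho of -0.49 over the subunits and over all genes. In controls rho was -0.70 over the subunits and -0.58 over all genes. Ndufs7 has a GC content of 59.6% and Ndufs4 of 43.1%. The part of GC content in the temperature differences was not tested. The knockout fold changes had r values of 0.19 and 0.029 with GC content at 22 °C and 30 °C.

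**Figure D4:**
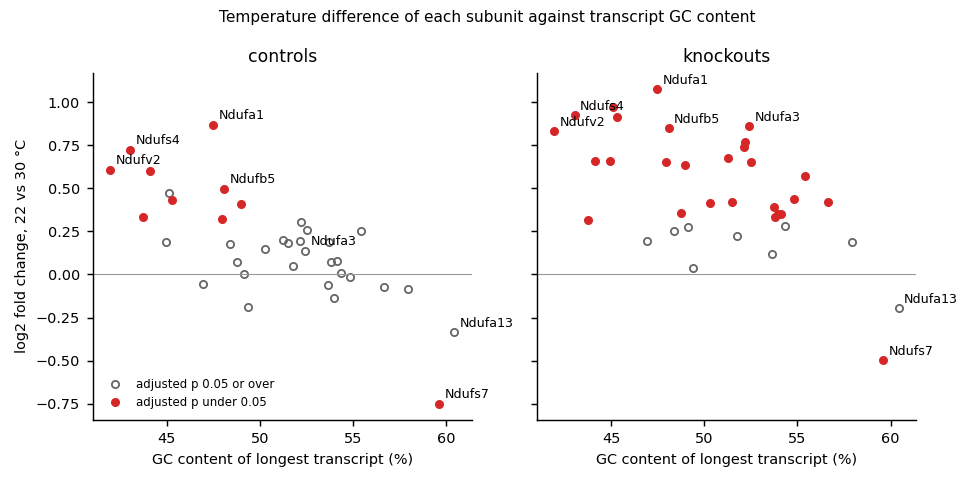
Log2 fold change of 22 °C over 30 °C for each subunit against the GC content (%) of its longest annotated transcript, in controls (left) and knockouts (right), filled where the limma adjusted p is under 0.05. Points fall from upper left, with Ndufs4 and Ndufv2, to lower right, where Ndufs7 and Ndufa13 lie.

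Shares of single subunits in the summed FPKM differed between genotypes, mostly at 30 °C. The shares are parts of one sum, so lower shares of some subunits raise those of others. Fewer animals per group at 30 °C also make ranges less likely to overlap. Ndufa1 made up 6.28 ± 0.934% of the summed subunit FPKM in controls at 22 °C (SD, n = 4) and 4.24 ± 0.222% in knockouts (SD, n = 4), then 3.74 ± 0.210% and 2.74 ± 0.465% at 30 °C (SD, n = 3 each). Its share was lower in knockouts without overlap at both temperatures. Ndufb3 and Ndufa3 had lower shares without overlap at 30 °C, at 2.30% against 2.93% and 2.37% against 3.23%. Ndufa10, Ndufb4, Ndufb11, Ndufc1 and Ndufv3 also had lower shares without overlap there. Higher shares without overlap at 30 °C included those of Ndufa12 (2.17% against 1.82%) and Ndufs4 (0.888% against 0.752%). Ndufa5, Ndufa6, Ndufa8, Ndufa9, Ndufa13, Ndufb2, Ndufb7 and Ndufb8 were likewise higher in share. All 36 subunits had a negative fold change at 30 °C, so a higher share there is a smaller decrease. These shares were not tested and have no matching value over all genes.

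Control 4 at 22 °C departed from the other 3 controls in both directions, by 0.64 (log2) above for Ndufs6 and 0.91 below for Ndufs1 (log2 difference -0.91). Over the 36 subunits these departures had a Pearson r of -0.45 with the length of the longest transcript, compared with -0.17 over all genes. The knockout fold changes of the subunits had an r with length of 0.45 at 22 °C and of 0.36 at 30 °C, where control 4 is in neither group, and over all genes of 0.16 and 0.11. By rank the relation at 30 °C was weaker: the Spearman rho of the subunits was 0.47 at 22 °C and 0.23 at 30 °C. Over all genes rho was 0.19 and 0.13. Whether the length pattern contributes to the differences at 22 °C was not tested beyond the fits without this library given above.

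Ratios of complex I transcripts to those of complexes III and IV spanned a narrow range. The summed FPKM of the 36 subunits was 1.87 to 2.08 times that of 9 complex III subunits and 0.894 to 1.04 times that of 10 complex IV subunits over all 14 libraries. Every animal at 22 °C had a lower complex IV ratio (at most 0.966) than every animal at 30 °C (at least 0.969), with sex moving with temperature. The complex III ratio overlapped between temperatures, with group means of 1.92 and 1.93 at 22 °C and 2.02 and 2.04 at 30 °C. The ratio to 4 complex II subunits ranged from 4.79 to 8.27, and that to 15 complex V subunits from 1.12 to 1.56, with control 4 at 22 °C the highest in both. The complex V ratio was lower in every knockout than in every control of its temperature. At 30 °C it was 1.14 to 1.21 in knockouts and 1.24 to 1.28 in controls, and at 22 °C the highest knockout (1.2065) lay just under the lowest control (1.2074). These ratios were not tested. The nuclear subunits of the other complexes had medians of -0.21 (II), -0.37 (III), -0.39 (IV) and -0.37 (V) at 22 °C and of -0.65, -0.65, -0.74 and -0.51 at 30 °C.

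**Figure D5:**
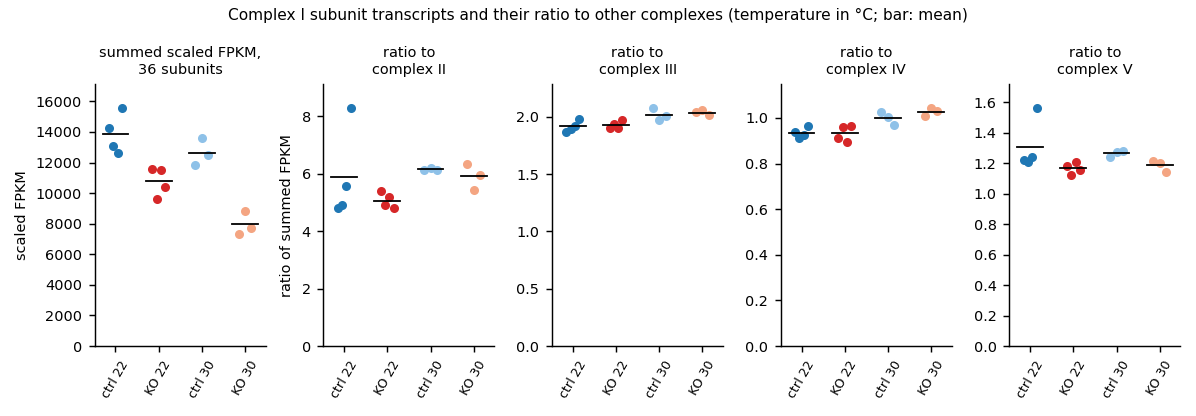
Summed scaled FPKM of the 36 subunits and its ratio to the summed FPKM of complexes II, III, IV and V, with a point per animal and a bar at each group mean. The ratios to complexes III and IV stay within 1.87 to 2.08 and 0.894 to 1.04, while control 4 at 22 °C has the highest ratio to complexes II and V (8.27 and 1.56).

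Partner genes outside the membership moved by different amounts. The 7 mitochondrial-DNA transcripts of complex I (mt-Nd1 to mt-Nd6 and mt-Nd4l) were all called lower, with medians of -3.21 at 22 °C and -3.03 at 30 °C, against -0.33 and -0.61 for the nuclear subunits. Ndufa4, once counted as a complex I subunit and now placed in complex IV, fell by 0.70 at 22 °C (SE 0.11, limma adjusted p = 0.0074) and by 1.19 at 30 °C (SE 0.13, limma adjusted p = 0.00023). Its paralog Ndufa4l2 was at -0.17 and -0.03 and was not called.

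Assembly factors, which build the complex without staying in it, had medians of -0.12 and -0.38 over 16 measured genes. None was called at 22 °C (0 of 16 in limma, with 3 at an unadjusted p under 0.05), and 4 were called lower at 30 °C. These were Foxred1 (-0.57), Ndufaf8 (-0.56), Ndufaf2 (-0.49) and Ndufaf5 (-0.44). Ndufaf2, which holds the place that Ndufa12 later takes, was at 18.9 scaled FPKM in knockouts and 27.0 in controls at 30 °C. Among 10 regulators of respiratory gene transcription, 1 was called higher at each temperature, where 0.91% and 8.82% of all genes were called higher, and 0 were called lower. Both are named here after their values were seen. Ppargc1a, a coactivator of respiratory genes, was higher in knockouts at 22 °C with overlapping ranges (1.14, SE 0.26, limma adjusted p = 0.041), and Yy1 was higher in knockouts at 30 °C (0.44, SE 0.11, limma adjusted p = 0.016). At 30 °C, 5 of the 10 had negative values, and the ranges of 4 lay over and of 1 under those of controls. The 1 was Tfam, a factor that transcribes and packages mitochondrial DNA, with 7.14 to 7.88 scaled FPKM in knockouts and 8.88 to 9.34 in controls (limma adjusted p = 0.14).

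Summed macrophage markers lay apart between genotypes at both temperatures, and summed brown adipocyte markers at 30 °C alone. Muscle, endothelial and lymphocyte sums overlapped between genotypes. The summed level of 7 brown adipocyte markers was 15368 to 20679 scaled FPKM in controls and 11921 to 15585 in knockouts at 22 °C, and 11003 to 13689 and 6015 to 8000 at 30 °C. Fabp4, a fatty acid carrier not particular to brown adipocytes, made up most of this sum, with 10678 to 13712 in controls and 7603 to 9030 in knockouts at 22 °C. At 22 °C, 2 of the 7 markers (Fabp4 and Adipoq) were lower in knockouts without overlap, 1 was higher (Plin1, 826 to 896 against 409 to 822), and 4 (Ucp1, Cidea, Ppargc1a and Elovl3) overlapped. At 30 °C, 5 were lower without overlap and 2 (Ppargc1a and Elovl3) overlapped. All 7 were detected in every library, and Ucp1, whose promoter drives the Cre, differed by -0.02 at 22 °C and -1.31 at 30 °C (limma adjusted p = 0.98 and 0.030). The 12 macrophage markers summed to 68.7 to 104 and 114 to 246 at 22 °C, and to 149 to 493 and 762 to 2333 at 30 °C. Lyz2 was the largest part of this sum in every library at 22 °C. There Adgre1, Cd14, C1qa, C1qc and Mrc1 overlapped between genotypes, and the other markers were higher in knockouts without overlap. Cd14 leaned the other way at 22 °C, with 1.95 to 4.51 in knockouts and 3.698 to 5.09 in controls. At 30 °C all but Cd14 were higher in knockouts without overlap. The 10 skeletal muscle markers ranged from 480.0 to 7316 in controls and 610.3 to 1550 in knockouts at 22 °C, and from 24.3 to 14735 and 2201 to 9172 at 30 °C. The 4 endothelial markers summed to 108 to 254 over all libraries. The 4 lymphocyte markers summed to at most 3.84 at 22 °C and 24.4 at 30 °C, and Ms4a1 was listed at 0 in 2 controls at 22 °C. With a muscle score as covariate, 3 subunits were called lower at 22 °C and 29 at 30 °C, where 125 and 555 of 13079 genes were. The part of brown adipocyte and macrophage content in the subunit differences was not tested.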

How the data were processed

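RNA from brown adipose tissue of 14 mice was sequenced, and the authors deposited 1 table of FPKM values per gene, with a column per animal; mm9 is the genome build in the submitters' processing notes, and the aligner, counting tool, use of strand and annotation are not given in the sources used here. Symbols, transcript length and GC content came from GENCODE M21, which matched 34490 of 35275 gene identifiers. Depth was recovered from low values of 1 to 5 reads, of which 91.8% lay within 0.05 of a whole read number. Counting error was smaller than the spread between replicates (chi-square per degree of freedom 10.3 to 145). Labels give separate animal identifiers and no pairing.

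Genes with at least 1 FPKM in at least 3 libraries were kept (13079). Libraries were scaled by the median ratio over 10021 nuclear genes at 1 FPKM or more in every library, because mitochondrial transcripts differ by genotype. Values were analysed as log2(scaled FPKM + 1), which understates changes of low genes, in a model with 4 group means fitted with limma 3.58.1 (R 4.3.3, eBayes with trend), with Benjamini-Hochberg adjustment over all genes. The script was tested on simulated data with 200 changed genes. Tables and plots used Python 3.11.15, pandas 2.3.3 and matplotlib 3.10.9.

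All 36 members enter the counts, medians and sums, and results for 1 of them are not reported here by name. Values per animal are given for the 3 lowest and 3 highest fold changes of each knockout comparison, the most abundant member of each module, and the 3 smallest p-values of the other comparisons. Members and gene lists were chosen with earlier results of these data known. Alternatives covered the pseudocount, the filter, the scaling, sample weights, a muscle score as covariate, fits to the compared groups alone, and leaving out animals. Gene coordinates are those of RefSeq start sites in GRCm38.p6, a build other than that of the files, and were used for promoter sequence only.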

Additional observations from a re-analysis of the deposited data

Results flagged for a closer look

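Ndufs5, an accessory subunit of the ND2 module, had a low value in knockout 2 at 22 °C. It was at 241 scaled FPKM in that animal and at 279 to 285 in the other 3 knockouts of the group, so the gap to the nearest animal was 0.86 of the whole range. Of 72 groups of 4 animals examined, 36 subunits in each of 2 groups at 22 °C, this was the 1 that passed Dixon's limit, and chance passes about 1 in 20.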

How the results depend on the processing

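The count of subunits called lower at 22 °C (5) was 1 in each of 4 settings (no filter, values as deposited, quantile normalization, and equal nuclear totals), 14 with sample weights, 3 with the muscle covariate and 0 with the compared groups alone. Over all genes the number called lower (139) moved as well. It was 81, 81, 90 and 75 in those 4 settings. It was 503 with sample weights, 125 with the muscle covariate and 47 with the compared groups alone. The count at 30 °C (31) was 14 as deposited, 17 under quantile normalization and 21 for equal nuclear totals. Over all genes the number called lower there (692) was 291, 935 and 409 in these settings. The interaction (0) had 1 call with sample weights, where 127 of all genes were called lower and 85 higher. For 22 °C over 30 °C in controls, the 9 higher were 5 as deposited, and the 1 lower was 3 with sample weights and 2 without the controls with R identifiers. Over all genes, the 2384 higher were 1738 as deposited. The 2687 lower were 4121 with sample weights and 3250 without the controls with R identifiers. The median at 22 °C (-0.33) was -0.032 as deposited, -0.13 for quantile-normalized values and -0.19 for equal nuclear totals, and at 30 °C (-0.61) it was -0.32, -0.42 and -0.46. The cause of these shifts was not tested.

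With 1 animal left out, the count at 22 °C was 1 to 6 and at 30 °C 18 to 32. Over all genes the number called lower in these fits was 42 to 145 and 348 to 860. At 22 °C it was 1 without control 1 or 2 or knockout 1 or 2, 2 without control 4 or knockout 4 at 22 °C or control 2 or 3 or knockout 1 or 3 at 30 °C, and 3 without control 1 at 30 °C. For temperature, the counts of higher and lower subunits were 5 to 10 and 1 to 2 in controls and 16 to 26 and 0 to 1 in knockouts. Over all genes they were 1607 to 2688 and 1879 to 3054 in controls, and 2057 to 3088 and 2982 to 4035 in knockouts.

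Values at 22 °C changed sign in many subunits, and as deposited 22 of 36 were negative. Those that changed included Ndufa12 (0.13 as deposited, 0.033 under quantile normalization), Ndufv1 (0.13 and 0.088), Ndufb9 (0.023 as deposited) and Ndufs4 (0.077 as deposited). Ndufa9 (0.097 and 0.029) and Ndufb10 (0.11 and 0.062) did so under both of these scalings. Ndufa5, Ndufa10, Ndufa11, Ndufab1, Ndufb8 and Ndufv3 did so as deposited, at 0.0076 to 0.051. Ndufs1 was at -0.23 with sample weights, -0.026 with the muscle covariate, -0.36 without the controls with R identifiers, and with 1 animal left out it ranged from -0.21 (without control 4) to 0.16 (without control 1), with -0.0062 without control 3 and -0.027 without knockout 4. No paired analysis was possible because the labels give individual animal identifiers and no replicate numbers shared between groups. Ndufb2 is the 1 subunit near the filter of 1 FPKM, and the small number of animals limits the precision.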
